A study of Mus musculus with 57 samples.

Results

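Aminoacyl-tRNA synthetases are the enzymes that load each tRNA with its amino acid before it enters the ribosome. The genes described here are 36 nuclear genes chosen by name from a list of these enzymes, 20 for the cytosol and 16 for the mitochondrion, out of 25416 genes in the acute and 54658 genes in the chronic count table. All 36 were found under the listed symbol in both tables, and all 36 passed the low-count filter in both, among 14240 genes tested in acute hearts and 14960 in chronic hearts.

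The question behind the study was whether nicotinamide mononucleotide (NMN), a precursor of NAD+, changes how the mouse heart responds to doxorubicin (Doxo), an anthracycline used against cancer that damages the heart. Wild-type male C57BL6/J mice, bought at 9 weeks of age and then acclimated, were given 1 intraperitoneal injection of 20 mg/kg Doxo (Doxo, 13 hearts), the same Doxo injection plus intraperitoneal NMN at 180 mg/kg per day starting 5 days earlier (Doxo-NMN, 13 hearts) or saline (Ctrl, 14 hearts), and hearts were taken at day 5 of the acute study. In the chronic study, wild-type C57BL/6 males of 14 to 16 weeks received 5 Doxo injections adding up to 20 mg/kg, with (6 hearts) or without (6 hearts) NMN at 500 mg/kg per day in the drinking water starting 5 days before, and hearts of these mice and of 5 vehicle-treated Ctrl mice were taken at day 60. Mice of the Doxo and Doxo-NMN groups died in both studies, so the hearts of these groups are those of survivors. In the acute study fewer mice survived to day 5 with Doxo alone than with Doxo and NMN. No group with NMN alone is analysed here.

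Each compartment makes its own proteins. Cytosolic synthetases serve the ribosomes that translate nuclear mRNAs, and several of them are held together in the multisynthetase complex by the scaffold proteins Aimp1, Aimp2 and Eef1e1 (Aimp3). Mitochondrial synthetases are also encoded in the nucleus and are imported into the organelle, where they charge the mitochondrial tRNAs used to translate the few proteins of the mitochondrial genome, all of them parts of the respiratory chain. In heart muscle, which depends on oxidative phosphorylation, inherited defects of mitochondrial synthetases such as Aars2 cause cardiomyopathy. Gars and Kars are counted here with the cytosolic enzymes, although each of these genes encodes the enzyme of both compartments. Eprs joins 2 activities, for glutamate and proline, in 1 protein, and Farsa and Farsb encode the 2 subunits of the cytosolic enzyme for phenylalanine. Transcription of many cytosolic synthetase genes is known to be raised by ATF4, the factor of the integrated stress response, while NRF1 is a known activator of nuclear genes for mitochondrial proteins.

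Promoter sequence was taken from RefSeq on GRCm38.p6, as windows of 250 bases before and 50 bases after the annotated start, and 13 cytosolic and 14 mitochondrial genes had a window that was used. Motifs for 3 kinds of site were searched on both strands, and a match is a description of the letters only. The core of the ATF4 site, written TGATGNAA, was held by the windows of 5 of the 13 cytosolic genes (Aars, Gars, Iars, Tars, Yars) and by 0 of the 14 mitochondrial ones, against 4.51% of all 27025 genes with a window of this length. The following stretches of 30 bases show a site of each gene, because their genes moved in different directions in the acute hearts. The bases in capitals are the core on either strand.
Aars (GRCm38.p6, chr8:111033840-111033869, plus strand): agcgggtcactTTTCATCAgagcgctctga
Gars (GRCm38.p6, chr6:55037960-55037989, plus strand): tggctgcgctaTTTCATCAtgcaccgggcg
Iars (GRCm38.p6, chr13:49682126-49682155, plus strand): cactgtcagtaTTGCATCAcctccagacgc
Tars (GRCm38.p6, chr15:11399655-11399684, minus strand): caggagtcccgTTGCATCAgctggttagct
Yars (GRCm38.p6, chr4:129189895-129189924, plus strand): acgagctcagcTGATGCAAcccgacgggac
The NRF1 site core, GCGCATGC, was held by the windows of 0 of the 13 cytosolic and 3 of the 14 mitochondrial genes (Rars2, Vars2, Wars2), against 3.05% of all genes. In Vars2, the gene for mitochondrial valyl-tRNA synthetase, the core occurred 2 times close to the start.
Rars2 (GRCm38.p6, chr4:34614895-34614924, plus strand): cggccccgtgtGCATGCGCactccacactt
Wars2 (GRCm38.p6, chr3:99141015-99141044, plus strand): ccagaggacagGCGCATGCgtagtaagcac
Vars2, the whole 250 bases before the start (GRCm38.p6, chr17:35667593-35667842, minus strand): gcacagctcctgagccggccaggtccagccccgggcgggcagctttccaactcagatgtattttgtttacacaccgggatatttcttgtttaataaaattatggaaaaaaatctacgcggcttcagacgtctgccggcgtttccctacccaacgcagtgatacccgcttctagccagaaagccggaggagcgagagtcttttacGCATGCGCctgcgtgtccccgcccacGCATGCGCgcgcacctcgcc
The E-box CACGTG stood in the windows of 4 cytosolic genes (Aars, Farsb, Iars, Tars) and 1 mitochondrial gene (Ears2), against 8.09% of all genes. In the windows of the members 0 matches of one motif overlapped a match of another.

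In Ctrl hearts the cytosolic genes were the more abundant class. Levels were compared between genes as RPKM, here CPM divided by the exon length of the gene, and the median level was 11.4 RPKM over the 20 cytosolic and 5.197 RPKM over the 16 mitochondrial genes in acute Ctrl hearts. Kars, for lysine, led the cytosolic class with 20.8 ± 1.14 RPKM, followed by Nars for asparagine with 19.4 ± 0.897 RPKM and Gars for glycine with 19.4 ± 1.05 RPKM, which lay within 1 SD of each other. Cars, for cysteine, was the lowest of the class with 2.75 ± 0.233 RPKM. Lars2, the mitochondrial enzyme for leucine, had the highest level of all 36 genes with 47.3 ± 6.43 RPKM, and the other 15 mitochondrial genes reached from 13.7 ± 1.003 RPKM for Iars2 down to 1.405 ± 0.176 RPKM for Wars2. Of the 35 steps in this order, 22 were smaller than the larger SD of the 2 neighbours. Exon length here is the union of all annotated exons, such as 18102 bases for Eprs and 4464 for Kars. The order of genes therefore depends on the annotation as well. In chronic Ctrl hearts the class medians were 11.1 and 5.70 RPKM, Kars was first with 27.98 ± 2.94 RPKM and Lars2 came after Nars and Gars with 16.3 ± 2.85 RPKM. The 2 tables come from different sequencing laboratories, so levels are set side by side across them and were not tested. No exon stretch of 100 bases in Lars2 occurs in another gene, and its longest run shared with the mitochondrial rRNA mt-Rnr2 was 12 bases.

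**Figure D1:**
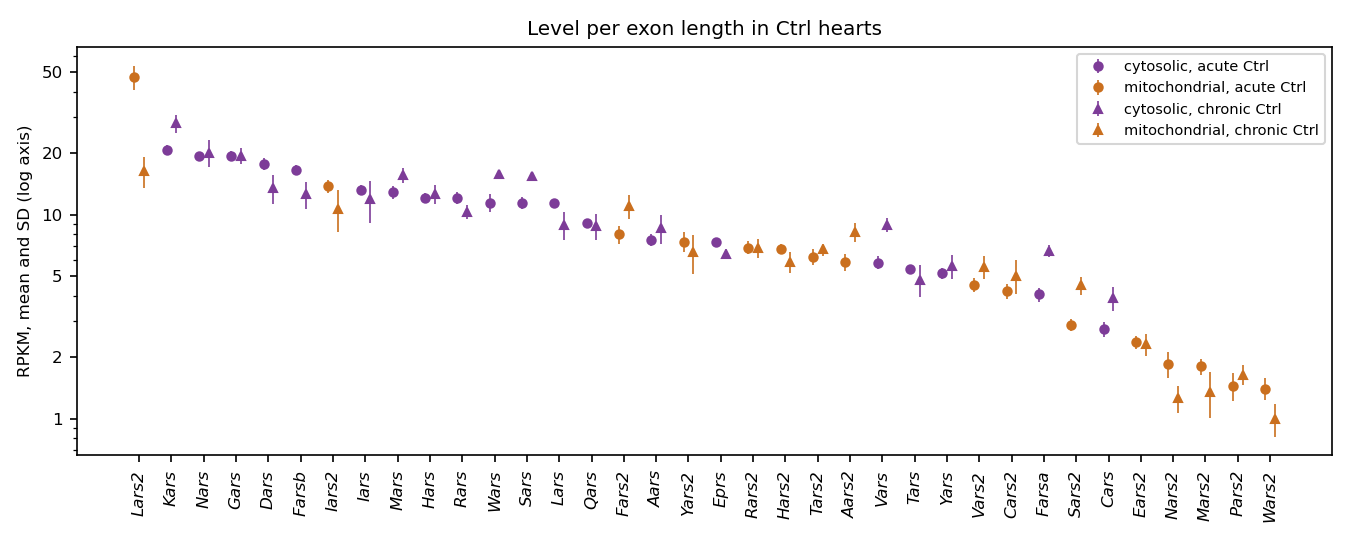
Level per exon length (RPKM, log axis) of the 36 synthetase genes in the 14 acute (circles) and 5 chronic (triangles) Ctrl hearts, as mean and SD, ordered by the acute level. Lars2 stands first in the acute hearts and below Kars, Nars and Gars in the chronic hearts, and most mitochondrial genes lie at the low end.

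Depth was high for every member. An acute heart had 32409622 to 52102850 counts in all, and a chronic heart 17769886 to 23862287, and the lowest count of any member in any heart was 80. The 7 ventricular cardiomyocyte markers were present in all hearts, with a summed level of 58172 to 73780.0 CPM in acute Ctrl, 28663 to 74202 CPM in acute Doxo and at least 60079.6 CPM in chronic hearts. Some other marker lists differed between the acute groups. The 5 red cell markers summed to 441 to 4363 CPM in Ctrl hearts and 0.211 to 2.81 CPM in Doxo-NMN hearts. The 6 atrial markers summed to 68.5 to 5728 CPM in Ctrl hearts, 44.9 to 1869 CPM in Doxo hearts and 42.7 to 3954 CPM with NMN, and each acute result was also computed within the 23 hearts under and the 17 hearts at or over 100 CPM of the atrial gene Myl4. Under 100 CPM there were 6 Ctrl, 8 Doxo and 9 Doxo-NMN hearts, and at or over it 8, 5 and 4. A call can be lost in these smaller sets through fewer hearts alone. The 4 neutrophil markers summed to 0.577 to 3.896 CPM in Ctrl and 1.404 to 252 CPM in Doxo hearts. Of the 6 fibroblast markers 4 (Col1a1, Col1a2, Col3a1, Lum) were lower past 1.5-fold in Doxo than in Ctrl hearts and Dcn was higher, with a median log2 fold change of -1.54, while their sums overlapped (756 to 1442 CPM in Ctrl and 505 to 1398 CPM in Doxo). The macrophage markers Csf1r (-1.07) and Adgre1 (-1.44) and the endothelial marker Kdr (-0.95) were also lower past 1.5-fold and Cd68 (0.45) and Pecam1 (0.39) higher, and 5 of the 7 ventricular markers were lower and 1 higher. T and B cell markers summed to at most 2.18 CPM in any acute heart. The heart labelled Doxo replicate 6 stood apart from the other 12 Doxo hearts, with a red cell sum of 340.4 CPM against 1.17 to 3.81 CPM in the other 12, and results are given with and without it. In whole hearts, fewer cells of a type and less RNA per cell cannot be told apart.

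In the acute study the 2 classes moved in opposite directions with Doxo. Of the 20 cytosolic genes, 16 were higher and 1 was lower in Doxo than in Ctrl hearts at an adjusted p under 0.05, with a median log2 fold change of 0.27. Of the 16 mitochondrial genes, 9 were lower and 1 was higher, with a median of -0.25. Over all tested genes 34.8% were higher and 33.3% lower by the same test, and the median log2 fold change was -0.0016. With a change of at least 1.5-fold as well, 3 cytosolic genes (Vars, Nars, Eprs) were higher and 0 lower, and 0 mitochondrial genes were higher and 4 (Hars2, Cars2, Vars2, Yars2) lower, where 14.7% and 15.4% of all genes passed. Most members therefore changed by less than 1.5-fold. The signs of both medians were kept in 52 alternative fits, from 0.21 to 0.28 for the cytosolic and from -0.32 to -0.22 for the mitochondrial class, including both sets of hearts divided by Myl4. How far the other marker differences take part in these changes was not tested.

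**Figure D2:**
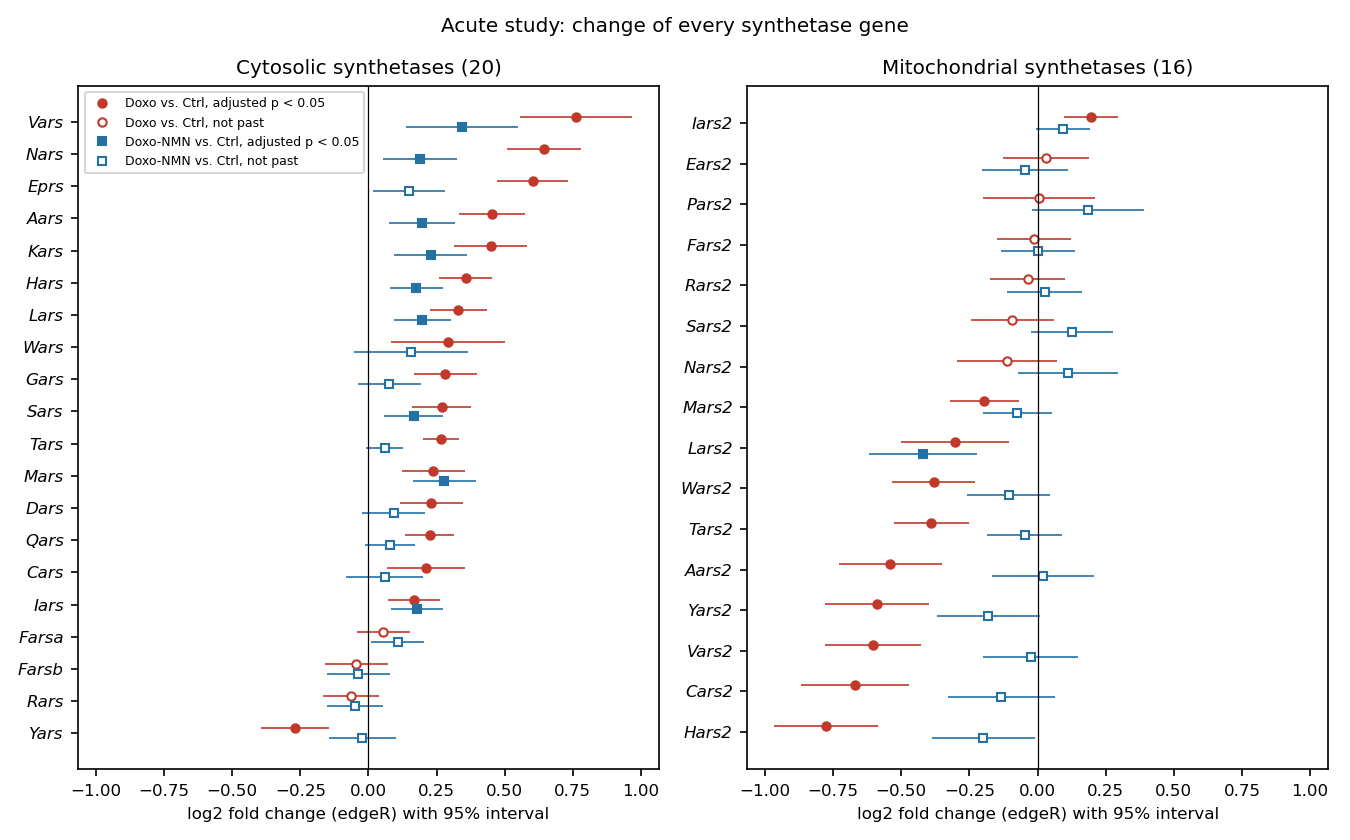
Log2 fold change with 95% interval of every cytosolic (left) and mitochondrial (right) synthetase gene in acute Doxo (circles) and Doxo-NMN (squares) hearts, each against the same Ctrl hearts; filled symbols have an adjusted p under 0.05. The cytosolic genes lie mostly right of 0 and the mitochondrial genes mostly left of it in Doxo, with Yars and Iars2 on the other side of their class.

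Among the cytosolic genes, Vars, the synthetase for valine, which associates with elongation factor eEF1 rather than with the multisynthetase complex, had the largest change. Its level was 29.4 to 37.3 CPM (median 31.9) in the 14 Ctrl hearts, 36.6 to 75.2 CPM (median 55.7) in the 13 Doxo hearts and 32.8 to 59.995 CPM (median 36.3) in the 13 Doxo-NMN hearts. The lowest Doxo value, 36.6 CPM, was that of replicate 6, and the other 12 Doxo hearts were all above the highest Ctrl heart. The log2 fold change was 0.76 (SE 0.105), or 1.696-fold (adjusted p = 7.86e-08), and 0.80 without replicate 6. From Doxo to Doxo-NMN hearts it changed by -0.42 (SE 0.107, adjusted p = 0.00130) and was 0.34 above Ctrl (adjusted p = 0.0135), a call lost with the atrial covariate and in both Myl4 sets. Vars lies on chromosome 17, 35000987 to 35016322, plus strand (GRCm38).

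Nars, the synthetase for asparagine, showed the same order. The level ran from 77.1 to 91.8 CPM (median 85.5) in Ctrl to 84.1 to 159 CPM (median 127) in Doxo and 83.1 to 121 CPM (median 94.4) in Doxo-NMN hearts, so that Doxo hearts other than replicate 6 (84.1 CPM) did not overlap Ctrl hearts. The change with Doxo was 0.64 on the log2 scale (SE 0.0694, adjusted p = 7.25e-10), and that from Doxo to Doxo-NMN was -0.46 (SE 0.0707, adjusted p = 3.91e-06). In Doxo-NMN hearts it was still 0.19 above Ctrl (adjusted p = 0.0392), a call that was lost on leaving out any of 10 single hearts. Eprs, the bifunctional enzyme of the multisynthetase complex, measured 118 to 146 CPM (median 132) in Ctrl, 140.2 to 234 CPM (median 204) in Doxo and 119 to 192 CPM (median 142) in Doxo-NMN hearts. It rose by 0.60 with Doxo (SE 0.0667, adjusted p = 1.27e-09), fell back by 0.45 with NMN (adjusted p = 2.62e-06) and did not differ from Ctrl past the threshold in Doxo-NMN hearts, with an unadjusted interval of 0.02 to 0.28 and an adjusted p of 0.0937. Both genes kept their Doxo call in hearts under and over 100 CPM of Myl4, at 0.64 and 0.59 for Nars and 0.59 and 0.56 for Eprs.

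Aars, for alanine, had 61.2 to 77.6 CPM (median 70.7) in Ctrl, 72.6 to 114 CPM (median 92.8) in Doxo and 64.8 to 91.9 CPM (median 76.1) in Doxo-NMN hearts, and the groups overlapped. Its Doxo change was 0.45 (SE 0.0615, adjusted p = 6.05e-08), and that from Doxo to Doxo-NMN was -0.26 (adjusted p = 8.40e-04). Aars shares 1326 exon bases with Exosc6 on the same strand, so reads there cannot be assigned to 1 gene. Kars, which makes the lysine enzyme of both compartments, went from 86.8 to 101 CPM (median 91.3) in Ctrl to 97.3 to 157 CPM (median 123) in Doxo and 89.96 to 128 CPM (median 107) in Doxo-NMN hearts. The 2 lowest Doxo hearts lay inside the Ctrl range. The change was 0.45 with Doxo (SE 0.0679, adjusted p = 4.20e-07) and -0.22 from Doxo to Doxo-NMN (adjusted p = 0.00722).

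The other 11 cytosolic genes that rose had log2 fold changes from 0.17 (Iars, for isoleucine) to 0.36 (Hars, for histidine). The call of Wars, the interferon-inducible tryptophan enzyme, depended on 1 heart and on the fit. Its level was 103 CPM in Doxo replicate 5 against 32.7 to 45.8 CPM (median 39.3) in Ctrl hearts, and its change of 0.29 (adjusted p = 0.0152) became 0.13 without that heart (adjusted p = 0.0835). In 4 of 13 Doxo hearts Wars was above the highest Ctrl heart. With all hearts kept, its call was also lost with voom and with the atrial covariate, and it was lost in both Myl4 sets. Of the 8 members of the multisynthetase complex, 7 (Eprs, Iars, Lars, Qars, Mars, Kars, Dars) were higher with Doxo, with a median of 0.23. Of the 12 enzymes outside it 9 were higher, with a median of 0.28, where 34.8% of all genes were higher. Cars lost its call in both Myl4 sets, Iars in hearts at or over and Sars in hearts under 100 CPM of Myl4. The eighth member of the complex, Rars for arginine, had a change of -0.06 (SE 0.0523) that did not pass (adjusted p = 0.273). Farsa and Farsb, the 2 subunits of the phenylalanine enzyme, also did not pass, at 0.05 and -0.04. Farsb had the smallest change of the class, with 40.3 to 48.3 CPM (median 42.6) in Ctrl and 29.995 to 49.7 CPM (median 41.1) in Doxo hearts and an interval of -0.16 to 0.07, although it passed as lower in hearts at or over 100 CPM of Myl4 (-0.18, adjusted p = 0.0320) and with the atrial covariate (-0.12, adjusted p = 0.0370).

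Yars, for tyrosine, went against its class. It measured 26.9 to 33.2 CPM (median 30.7) in Ctrl, 19.3 to 35.5 CPM (median 24.5) in Doxo and 26.7 to 32.8 CPM (median 29.9) in Doxo-NMN hearts. The highest Doxo value, 35.5 CPM, was again that of replicate 6, and the groups overlapped with and without it. The change was -0.27 (SE 0.0633, adjusted p = 2.83e-04), -0.28 and -0.32 in hearts of low and high Myl4, and the return with NMN was 0.25 (adjusted p = 0.00153). Yars starts 33 bases from the start of S100pbp on the opposite strand, and its window holds the ATF4 core shown above.

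**Figure D3:**
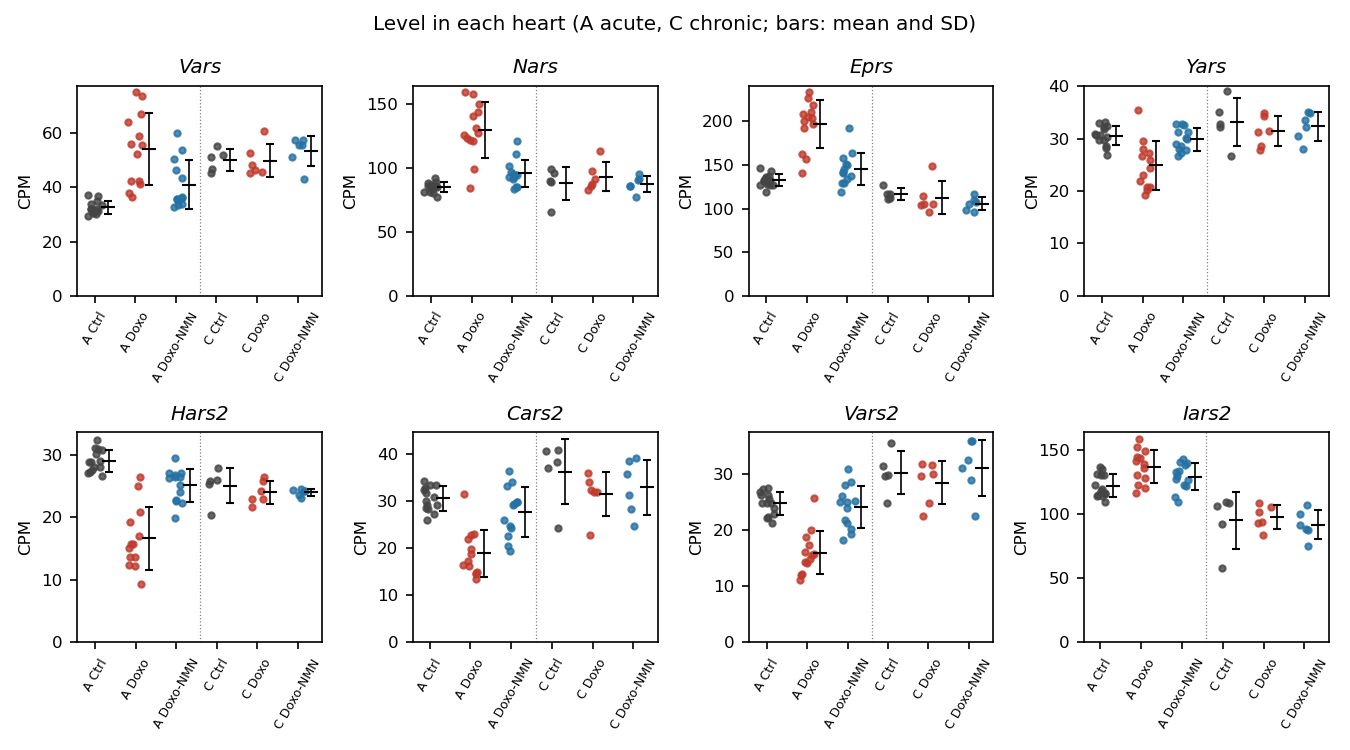
CPM in each heart of 4 cytosolic (top) and 4 mitochondrial (bottom) synthetase genes in the acute (A) and chronic (C) groups, with mean and SD beside the points. Vars, Nars and Eprs are high and Hars2, Cars2 and Vars2 low in acute Doxo hearts, while the chronic groups overlap.

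Among the mitochondrial genes, Hars2, the enzyme for histidine, fell most. Ctrl hearts had 26.6 to 32.5 CPM (median 28.9), Doxo hearts 9.32 to 26.6 CPM (median 15.7) and Doxo-NMN hearts 19.9 to 29.5 CPM (median 26.3). All 13 Doxo hearts were below the lowest Ctrl heart, replicate 6 by less than the last digit printed. The log2 fold change was -0.78 (SE 0.0972), a level of 0.584 times Ctrl (adjusted p = 1.29e-08), and it was -0.90 and -0.66 in hearts of low and high Myl4. NMN hearts were 0.58 above Doxo hearts (SE 0.0985, adjusted p = 1.32e-05) and, at -0.20, did not differ from Ctrl past the threshold (adjusted p = 0.122). Even so, 9 of 13 Doxo-NMN hearts lay below the lowest Ctrl heart. With voom, and with only the 2 groups compared, Hars2 was called in Doxo-NMN against Ctrl hearts. Hars2 lies on chromosome 18, 36783008 to 36792562, plus strand, head to head with its cytosolic partner Hars on the other strand. The first exons of the pair overlap by 195 bases, and strand use in the counting is not given in the sources used here. Hars was higher, going from 27.1 to 31.5 CPM (median 29.3) in Ctrl to 28.6 to 44.9 CPM (median 37.4) in Doxo hearts, with a change of 0.36 (SE 0.0492, adjusted p = 8.00e-08).

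Cars2, for cysteine, measured 26.04 to 34.4 CPM (median 30.6) in Ctrl, 13.4 to 31.6 CPM (median 17.3) in Doxo and 19.5 to 36.5 CPM (median 29.2) in Doxo-NMN hearts. Doxo replicate 6 had 31.6 CPM, inside the Ctrl range, and the other 12 Doxo hearts were below every Ctrl heart. The change of -0.67 with Doxo (SE 0.101, adjusted p = 4.00e-07) became -0.75 without replicate 6, and that from Doxo to Doxo-NMN was 0.54 (SE 0.102, adjusted p = 5.59e-05). Vars2, the partner of Vars, went from 21.1 to 27.4 CPM (median 24.7) in Ctrl to 11.1 to 25.7 CPM (median 15.6) in Doxo and 18.3 to 30.8 CPM (median 24.97) in Doxo-NMN hearts. Replicate 6 (25.7 CPM) was again the highest Doxo heart and the only 1 inside the Ctrl range. Vars2 fell by 0.60 on the log2 scale (SE 0.0901, adjusted p = 3.33e-07) and was 0.58 higher with NMN (adjusted p = 5.10e-06), which left -0.03 against Ctrl with an interval of -0.20 to 0.15. Vars2 lies on chromosome 17, 35655634 to 35667592, minus strand. Its exons share 465 bases with Gm20483 and those of Cars2 share 422 with Naxd, each on the opposite strand. Without strand the reads there cannot be assigned to 1 gene.

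Yars2, for tyrosine, had 18.4 to 27.3 CPM (median 23.5) in Ctrl, 11.8 to 26.1 CPM (median 13.8) in Doxo and 14.96 to 25.7 CPM (median 21.8) in Doxo-NMN hearts. It fell by 0.59 with Doxo (adjusted p = 1.79e-06) and rose by 0.41 from Doxo to Doxo-NMN (adjusted p = 7.28e-04). Aars2, the alanine enzyme, measured 23.7 to 31.9 CPM (median 28.2), 11.9 to 31.2 CPM (median 16.3) and 20.6 to 35.7 CPM (median 28.7) in the same order of groups. Its changes were -0.54 with Doxo (SE 0.0966, adjusted p = 6.73e-06) and 0.56 from Doxo to Doxo-NMN (SE 0.0981, adjusted p = 1.86e-05). In both genes replicate 6, at 26.1 and 31.2 CPM, was the highest Doxo heart. Tars2 for threonine (-0.39), Wars2 for tryptophan (-0.38) and Mars2 for methionine (-0.20) also fell, with adjusted p-values of 8.53e-06, 4.87e-05 and 0.00763.

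Lars2 was lower than in Ctrl in both Doxo groups. It measured 414 to 640.1 CPM (median 528) in Ctrl, 286 to 658 CPM (median 400.0) in Doxo and 303 to 564 CPM (median 369) in Doxo-NMN hearts. In each of the Doxo and Doxo-NMN groups 9 of 13 hearts lay below the lowest Ctrl heart, and the ranges overlapped through the others. The change was -0.30 (SE 0.101) in Doxo (adjusted p = 0.00828) and -0.42 (SE 0.101) in Doxo-NMN hearts against Ctrl (adjusted p = 0.00210), and the step from Doxo to Doxo-NMN, -0.12, did not pass (adjusted p = 0.331). In hearts under 100 CPM of Myl4 the Doxo change was -0.30 and missed the threshold (adjusted p = 0.0614). The mitochondrial rRNA mt-Rnr2, read here in poly(A)-selected RNA, had medians in the same order, 13074, 11172 and 9052 CPM. Its ranges overlapped, with 9539 to 16337.5 CPM in Ctrl, 7908 to 16447 CPM in Doxo and 7227 to 12842 CPM in Doxo-NMN hearts. A link between mt-Rnr2 and Lars2 was not tested.

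Iars2, for isoleucine, went against the mitochondrial class, with 109 to 137 CPM (median 119) in Ctrl, 117 to 159 CPM (median 139) in Doxo and 109 to 143 CPM (median 129.6) in Doxo-NMN hearts. The groups overlapped, and the change was 0.20 (SE 0.0506, adjusted p = 7.71e-04). Its gene shares 2034 exon bases with Rab3gap2 on the opposite strand, so the 2 genes' reads cannot be told apart there without strand. The other 6 genes, Ears2, Fars2, Nars2, Pars2, Rars2 and Sars2, did not pass and had changes from -0.11 to 0.03. Pars2, for proline, had the smallest, with 2.89 to 5.39 CPM (median 4.68) in Ctrl and 2.69 to 5.94 CPM (median 4.39) in Doxo hearts and an interval of -0.20 to 0.21.

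Without Doxo replicate 6, the CPM of Doxo hearts did not overlap that of Ctrl hearts for 5 cytosolic genes, all higher (Eprs, Hars, Nars, Tars, Vars), and for 5 mitochondrial genes, all lower (Cars2, Hars2, Tars2, Vars2, Yars2). Over all genes 6.95% were higher and 7.37% lower without overlap in this set of hearts. With replicate 6 kept, Hars2 (lower) alone of the 36 genes did not overlap, where 0.400% of all genes were higher and 0.541% lower without overlap.

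Cytosolic genes called in Doxo-NMN against Doxo hearts were mostly lower, and the mitochondrial genes called were all higher. From Doxo to Doxo-NMN hearts, 10 of the 20 cytosolic genes were lower and 1 (Yars) was higher, with a median log2 change of -0.14, and 9 of the 16 mitochondrial genes were higher and 0 lower, with a median of 0.22. Over all genes 25.7% were higher and 27.4% lower. With a change of at least 1.5-fold none of the 36 genes passed in this comparison (8.17% and 8.88% of all genes did), although Hars2 (1.49-fold) and Vars2 (1.49-fold) were close to it. This comparison and that of Doxo with Ctrl share the Doxo hearts, so a heart high in Doxo enters both. The calls of Lars and Nars2 were near the threshold (adjusted p = 0.0379 and 0.0469) and were lost on leaving out any of 14 and 21 single hearts. Sars2 was called here at 0.22 (adjusted p = 0.0191) without a call in Doxo, and lost that call in both Myl4 sets and with only the 2 groups compared.

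The comparison of Doxo-NMN with Ctrl shares its Ctrl hearts with that of Doxo, and here too the counts of the classes are given side by side. In Doxo-NMN hearts 9 of 20 cytosolic genes were higher than in Ctrl hearts and 0 lower (Aars, Hars, Iars, Kars, Lars, Mars, Nars, Sars, Vars), with a median of 0.15. Of the 16 mitochondrial genes 0 were higher and 1, Lars2, was lower, with a median of -0.04, and at an unadjusted p under 0.05 there were 2. Over all genes 15% were higher and 11.1% lower, and 3.31% and 3.79% with 1.5-fold, which no member reached. Limma with voom and sample weights called 4 of the 16 mitochondrial genes higher and 2 lower, beside 3042 higher and 2847 lower of all 14240 genes. Mars, for methionine, and Iars had about the same change in both Doxo groups, with 0.24 and 0.28 for Mars and 0.17 and 0.18 for Iars, the step between them being 0.04 (SE 0.0603) and 0.01 (SE 0.0497). Mars measured 39.1 to 49.6 CPM (median 43.8) in Ctrl, 42.3 to 60.3 CPM (median 49.8) in Doxo and 40.8 to 61.9 CPM (median 53.02) in Doxo-NMN hearts. Calls in this comparison were fewer within hearts of like Myl4, for members and for all genes. The sets are also smaller, with 6 Ctrl and 9 Doxo-NMN hearts under 100 CPM and 8 and 4 at or over it. How far the loss of hearts alone lowers the calls was not tested. In hearts under 100 CPM 2 of the 20 cytosolic genes were called higher (4.43% of all genes), and in hearts at or over it 0 of the 20 were (4.78%), with class medians of 0.13 and 0.058.

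The contrast of the 2 classes can be read in each heart. The mean log2 CPM of the 20 cytosolic genes minus that of the 16 mitochondrial genes was 0.83 to 0.98 (median 0.88, mean 0.90 ± 0.05, SD, n = 14) in Ctrl, 0.94 to 1.81 (median 1.49, mean 1.46 ± 0.25, SD, n = 13) in Doxo and 0.89 to 1.505 (median 1.04, mean 1.08 ± 0.16, SD, n = 13) in Doxo-NMN hearts. Of the 13 Doxo hearts 12 were above the highest Ctrl heart, and the thirteenth was replicate 6. Without it the Doxo range was 1.13 to 1.81 (median 1.505, mean 1.51 ± 0.21, SD, n = 12). Most Doxo-NMN hearts lay between, with 11 of 13 above the highest Ctrl heart and 11 of 13 below the lowest of the 12 other Doxo hearts. The spread among Doxo hearts was 0.25 against 0.05 (SD) among Ctrl hearts. Both classes took part in the difference, since the cytosolic mean was 0.23 higher and the mitochondrial mean 0.33 lower in Doxo than in Ctrl hearts. In 10 Doxo hearts the cytosolic mean was above every Ctrl heart, and in 11 the mitochondrial mean was below every Ctrl heart.

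**Figure D4:**
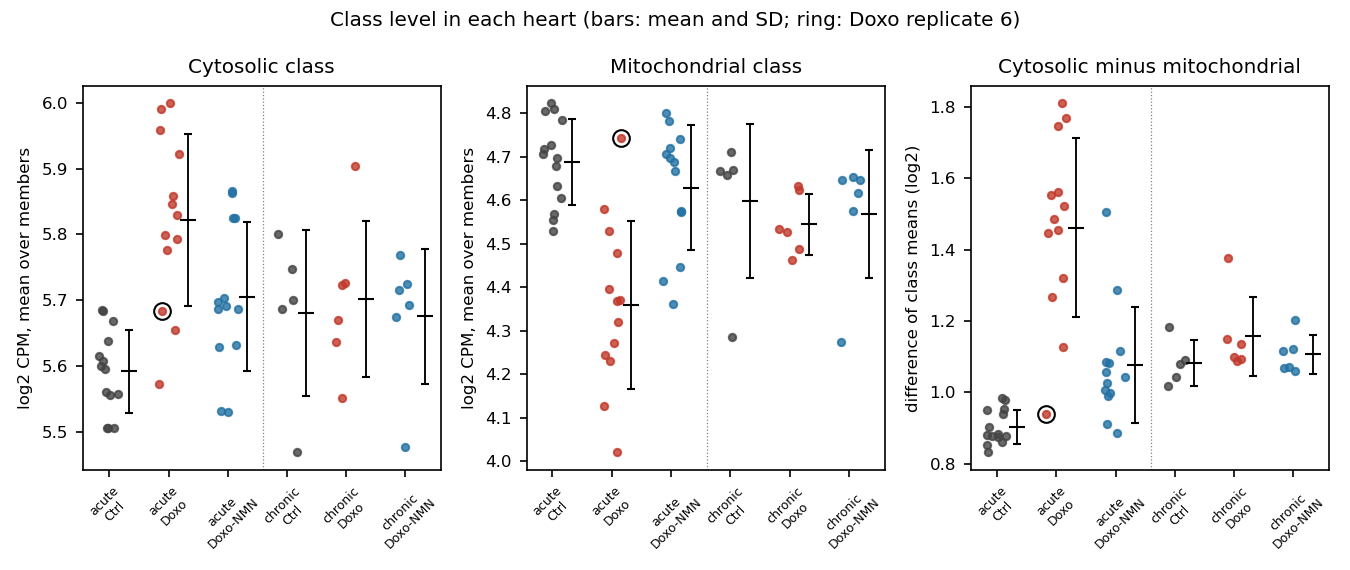
Mean log2 CPM of the 20 cytosolic (left) and 16 mitochondrial genes (centre) and their difference (right) in every heart, with the mean and SD of each group beside the points and Doxo replicate 6 ringed. Acute Doxo hearts are high in the left and right and low in the centre panel, and the ringed heart has a difference of 0.94, inside the Ctrl range of 0.83 to 0.98.

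Pairs of enzymes for the same amino acid show where the contrast is wide and where it is absent. There were 17 such pairs, with Eprs set against both Ears2 and Pars2 and Fars2 against both cytosolic subunits. The log2 ratio of cytosolic to mitochondrial CPM was higher in Doxo than in Ctrl hearts in 14 pairs, by a median of 0.60 over the 17. The valine pair Vars/Vars2 changed most, from 0.40 ± 0.13 in Ctrl to 1.76 ± 0.62 in Doxo and 0.76 ± 0.35 in Doxo-NMN hearts (SD, n = 14, 13 and 13). The histidine pair Hars/Hars2 followed with 0.03 ± 0.11, 1.21 ± 0.53 and 0.40 ± 0.24. The alanine and cysteine pairs widened by 1.02 and 0.90. The isoleucine, arginine and phenylalanine pairs, Iars/Iars2, Rars/Rars2 and Farsb/Fars2, differed between Doxo and Ctrl by -0.03, -0.02 and -0.03, within the SD among Ctrl hearts. With NMN the ratio was lower than in Doxo hearts in 15 of 17 pairs, by a median of 0.36. In the leucine pair it hardly moved with NMN, at -3.09 in Ctrl, -2.45 in Doxo and -2.47 in Doxo-NMN hearts.

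**Figure D5:**
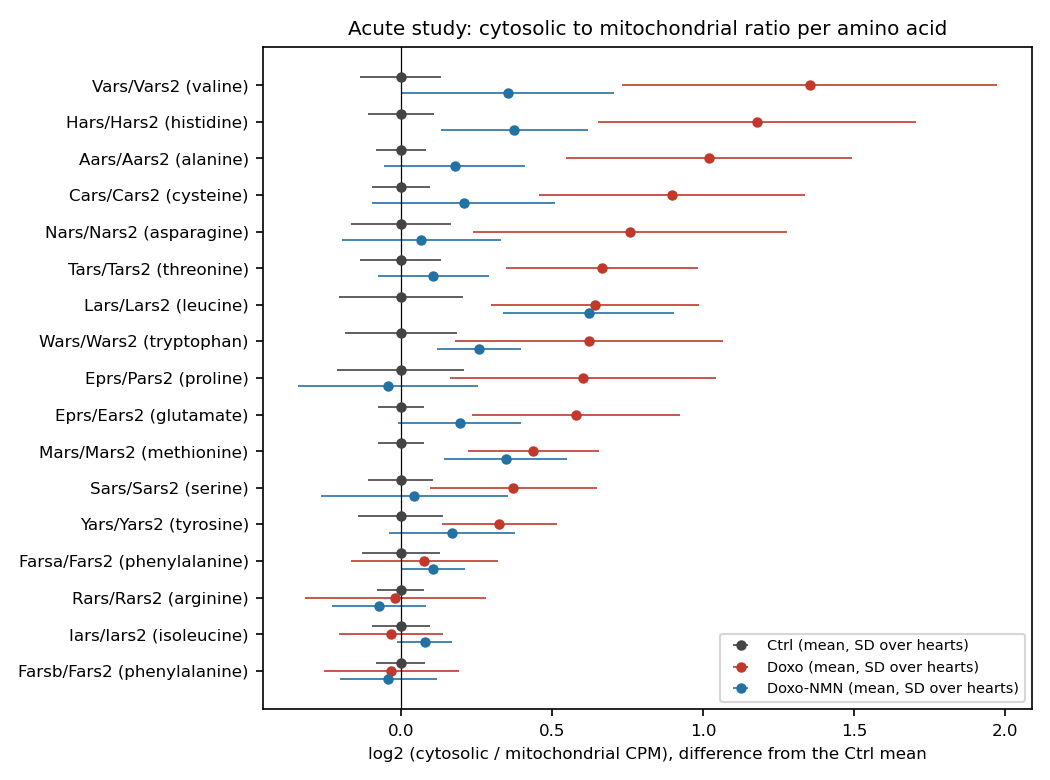
Log2 ratio of cytosolic to mitochondrial CPM for the 17 enzyme pairs in acute Ctrl, Doxo and Doxo-NMN hearts, drawn as the difference from the Ctrl mean with the SD over hearts. The ratio for valine is 1.35 and that for histidine 1.18 above Ctrl in Doxo, while the 4 lowest pairs stay near 0.

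The partners of the synthetases were described by lists of related genes. Among 10 genes of the complex, of tRNA proofreading and of selenocysteine charging, 3 were higher and 2 lower in Doxo than in Ctrl hearts (median 0.07), where 34.8% of all genes were higher and 33.3% lower. The 3 scaffold proteins of the multisynthetase complex did not move together. Aimp1 changed by 0.44 (SE 0.0665, adjusted p = 3.89e-07), Aimp2 by -0.34 (SE 0.0839, adjusted p = 5.17e-04) and Eef1e1 by -0.29 (SE 0.109, adjusted p = 0.0165). Of the 7 elongation factors that take over charged tRNA, 3 were higher and 2 lower with Doxo, beside the same shares of all genes. Cytosolic Eef1a1, Eef1b2 and Eef1d rose, Eef1a1 by 0.37 (SE 0.135, adjusted p = 0.0147), and Eef1a2, the muscle form, and Eef1g did not pass. The mitochondrial factor Tufm fell by 0.79 (SE 0.129, adjusted p = 1.74e-06) and its exchange factor Tsfm by 0.72 (SE 0.121, adjusted p = 2.56e-06), both past 1.5-fold, and both rose with NMN, Tufm by 0.63 (SE 0.131, adjusted p = 1.57e-04).

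The list of genes for mitochondrial tRNA maturation, some of which also serve the cytosol, had no common direction. Of 19 genes for processing, modification and amidation, 8 were higher and 9 lower in Doxo than in Ctrl hearts, with a median of -0.07, and over all genes 34.8% were higher and 33.3% lower. Trnt1, which adds the CCA end that every synthetase needs and serves both compartments, rose by 0.66 (SE 0.0840, adjusted p = 1.68e-08), and Yrdc, which acts in the threonylcarbamoyl modification of tRNA in both compartments, by 0.82 (SE 0.0788, adjusted p = 1.14e-10). The mitochondrial modification enzyme Gtpbp3 changed by -0.46 (SE 0.0762, adjusted p = 2.17e-06) and Trmt5 by -0.73 (SE 0.171, adjusted p = 2.87e-04). Gatc and Qrsl1, subunits of the amidotransferase that makes mitochondrial glutaminyl-tRNA in place of a glutaminyl-tRNA synthetase, were lower, and the subunit Gatb was higher.

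Atf4 itself and part of its known target genes rose with Doxo. Atf4 averaged 61.999 CPM in Ctrl hearts, 167 CPM after Doxo alone and 72.4 CPM after Doxo and NMN, a change of 1.47 (SE 0.201, adjusted p = 6.72e-08) and then of -1.23 (SE 0.204, adjusted p = 9.40e-06). Of 23 tested genes of the target list, Atf4 included, 12 were higher and 7 lower with Doxo, where 34.8% and 33.3% of all genes were, with a median of 0.73. The amino acid transporter Slc7a5 rose by 1.05 (SE 0.179, adjusted p = 3.44e-06) and the serine synthesis gene Psat1 by 1.56 (SE 0.269, adjusted p = 3.95e-06). Phgdh, the first enzyme of serine synthesis, went the other way with -0.74 (SE 0.181, adjusted p = 4.91e-04), as did the transcription factor Atf5 with -0.57 (SE 0.0769, adjusted p = 5.03e-08). Asns, a classical target, had 0.30 (SE 0.168, adjusted p = 0.111). Of the 5 synthetase genes with an ATF4 core in the window, 4 (Aars, Gars, Iars, Tars) rose and Yars fell, beside 16 that rose among all 20 cytosolic genes.

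In the chronic study none of the 36 genes was called in any comparison. By edgeR, 0 genes of either class passed in Doxo vs. Ctrl (0.0602% of all genes did), in Doxo-NMN vs. Doxo (0% of all genes) and in Doxo-NMN vs. Ctrl (0.0401%). At an unadjusted p under 0.05 there was 1 member in the 3 comparisons, Rars2 in Doxo-NMN vs. Doxo (0.18, adjusted p = 0.999), and DESeq2 and limma with voom also called 0 members. The median log2 change in Doxo vs. Ctrl was 0.02 for the cytosolic and -0.08 for the mitochondrial class. In the 4 lists of related genes 0 genes were called in the chronic study.

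The leading acute genes showed overlapping chronic groups. Vars measured 51.96, 46.6, 45.3, 51.03 and 55.3 CPM in the 5 Ctrl hearts, 45.4 to 60.9 CPM (median 47.3) in the 6 Doxo hearts and 43.2 to 57.5 CPM (median 55.6) in the 6 Doxo-NMN hearts. The interval of its Doxo change was -0.20 to 0.18. Hars2 had 20.3, 28.002, 25.9, 25.97 and 25.4 CPM in Ctrl, 21.7 to 26.5 CPM (median 23.6) in Doxo and 23.1 to 24.6 CPM (median 24.3) in Doxo-NMN hearts, with an interval of -0.22 to 0.10. Lars2 had the largest chronic differences, -0.29 in Doxo and -0.33 in Doxo-NMN hearts against Ctrl, neither past the threshold. It measured 199, 208, 129, 194 and 176 CPM in Ctrl, 120.5 to 210.4 CPM (median 135) in Doxo and 117 to 226 CPM (median 129) in Doxo-NMN hearts. The contrast of the classes was 1.02 to 1.18 (median 1.08, mean 1.08 ± 0.06, SD, n = 5) in Ctrl, 1.09 to 1.38 (median 1.12, mean 1.16 ± 0.11, SD, n = 6) in Doxo and 1.06 to 1.204 (median 1.09, mean 1.11 ± 0.05, SD, n = 6) in Doxo-NMN hearts, with 1 Doxo heart (replicate 2) and 1 Doxo-NMN heart (replicate 4) above the Ctrl range. These groups are smaller than the acute ones, and intervals of this width do not show that the genes were unchanged.

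The difference between the 2 Doxo effects was tested directly. In the interaction fit, which took the Ctrl and Doxo hearts of each study, the acute change was more positive than the chronic one for 5 cytosolic genes, Vars (0.76, SE 0.171, adjusted p = 0.00490), Eprs (0.65, SE 0.124, adjusted p = 0.00227), Nars (0.55, SE 0.135, adjusted p = 0.00722), Aars (0.50, SE 0.132, adjusted p = 0.0110) and Lars (0.32, SE 0.110, adjusted p = 0.0358). It was more negative for 2 mitochondrial genes, Hars2 (-0.72, SE 0.186, adjusted p = 0.00955) and Vars2 (-0.52, SE 0.162, adjusted p = 0.0249). Over all genes 11% were more positive and 8.33% more negative. The remaining 29 members did not pass, and the call of Lars was lost on leaving out any of 17 single hearts. These counts depended on single hearts, with 8 cytosolic and 6 mitochondrial genes called without acute Doxo replicate 6, 4 mitochondrial genes without acute Doxo replicate 7, 9 cytosolic genes without chronic Doxo replicate 2, and 8 cytosolic and 1 mitochondrial gene without chronic Ctrl replicate 1. Age, supplier of the mice, housing site, diet, dosing, time after Doxo and sequencing laboratory all differ between the studies and cannot be told apart.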

How the data were processed

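Heart RNA of 40 acute and 17 chronic mice was poly(A)-selected and sequenced. The authors aligned single-end reads to mm10 by STAR and made gene counts by featureCounts, versions 2.7.3a and 2.0.0 in the submitters' processing notes (the study's methods give another STAR version), and the deposited values are raw counts. Strand use in the counting is not given in the sources used here. In the acute table a median of 73.6% of each heart's low counts (up to 20) were even, against 40.3% in the chronic table, and acute counts divided by 2 were tried as an alternative.

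The tests used edgeR 4.0.16 under R 4.3.3: filterByExpr by group, TMM, the 3 groups of a study in 1 quasi-likelihood fit, and Benjamini-Hochberg adjustment over all tested genes. The adjusted p-values of the acute, chronic and interaction results come from these edgeR fits. Replicates are separate hearts of a group, and p-values measure the spread between them. CPM uses TMM factors, log2 CPM a prior count of 2, and RPKM the union exon length in GENCODE vM21. Intervals are 95% from the standard error. A count of 3 equals 0.0576 to 0.0926 CPM in an acute heart and 0.126 to 0.169 CPM in a chronic one, which covers counting error only. No 2 hearts of the same group agreed within sampling noise, and hearts of different groups were not compared in this way.

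Alternatives were limma 3.58.1 (voom, sample weights), DESeq2 1.42.0, scaling by RLE, other filters, fits of 2 groups, robust dispersion, the replicate number as a block, an atrial covariate, a fold threshold, other scales for the class contrast, hearts under 100 CPM of Myl4, and leaving out each heart. Hearts at or over 100 CPM of Myl4 were added after seeing the data. Each heart's group came from its label. Genes described in full were the 5 largest called changes per class in acute Doxo vs. Ctrl, members called at 1.5-fold, called members opposite in sign to their class median, and the smallest change of each class. Hars, Wars, Lars2, Mars, Iars and Sars2 were described more fully after their values were seen. The members and lists were chosen with earlier results of these data known. Hars, Lars, Nars and Hars2 lie on chromosome 18, whose sequence is not shown, and 5 other genes had no window in the table used.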

Additional observations from a re-analysis of the deposited data

Results flagged for a closer look

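Among the 108 combinations of member and chronic group tested with Dixon's criterion, 17 had a heart far from the others of its group. For a single combination chance gives about 1 in 20. The same hearts enter the combinations of every member, so these are not separate trials and the count cannot be set against that rate. Each of the 17 is given with the gap to the nearest heart as a share of the group's range and with its level. Doxo replicate 2 was the highest heart for Dars (0.699, 76.4 CPM against 55.2 to 61.6), Eprs (0.641, 149 CPM against 95.8 to 115), Hars (0.682, 37.3 CPM against 31.003 to 33.002), Kars (0.673, 180.0 CPM against 118 to 138) and Sars (0.831, 109.8 CPM against 78.97 to 84.2). Doxo replicate 2 was the lowest heart for Cars2 (0.682, 22.8 CPM against 31.9 to 36.1). Ctrl replicate 1 was the lowest heart for Farsb (0.715, 24.4 CPM against 33.8 to 37.5), Kars (0.803, 102 CPM against 128 to 135), Cars2 (0.767, 24.3 CPM against 37.1 to 40.97), Ears2 (0.796, 9.35 CPM against 12.4 to 13.1) and Nars2 (0.733, 6.39 CPM against 8.83 to 9.73). Doxo replicate 3 was the highest heart for Farsb (0.730, 33.5 CPM against 29.9 to 30.9). Doxo-NMN replicate 1 was the highest heart for Farsb (0.763, 39.3 CPM against 30.02 to 32.2). Doxo-NMN replicate 4 was the lowest heart for Kars (0.703, 94.95 CPM against 128 to 143), Lars (0.642, 39.03 CPM against 46.01 to 49.9) and Mars (0.684, 40.6 CPM against 51.1 to 55.96). Doxo-NMN replicate 6 was the highest heart for Lars2 (0.826, 226 CPM against 117 to 136).

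The Doxo change differed between the acute and chronic studies by the edgeR interaction test for 7 of 36 members. The acute minus chronic difference in log2 fold change was 0.50 for Aars, 0.65 for Eprs, 0.32 for Lars, 0.55 for Nars and 0.76 for Vars, and -0.72 for Hars2 and -0.52 for Vars2.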

How the results depend on the processing

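Of 1128 class counts, medians and contrasts computed under the alternatives, 1095 stayed within 1.5 times or within the spread of the reported value and 0 reversed. In acute Doxo vs. Ctrl, cytosolic genes called lower became 2 with the atrial covariate and 2 in hearts at or over 100 CPM of Myl4. With a change of at least 1.5-fold, cytosolic calls were 3 higher and 0 lower and mitochondrial calls 0 higher and 4 lower. In Doxo-NMN vs. Doxo, 1.5-fold left 0 cytosolic genes higher, 0 lower and 0 mitochondrial genes higher, and mitochondrial genes called lower became 1 with the atrial covariate and ranged from 0 to 1 on leaving out each heart (1, Iars2, without Doxo replicate 1 or 12). In Doxo-NMN vs. Ctrl, cytosolic genes called higher became 4 with the atrial covariate, 2 in hearts under and 0 in hearts at or over 100 CPM of Myl4, and 0 at 1.5-fold. Mitochondrial genes called higher became 4 with voom, and those called lower became 2 with voom, with only the groups compared and with the atrial covariate, and 0 in hearts at or over 100 CPM of Myl4 and at 1.5-fold. For the difference between studies, voom called 13 cytosolic genes higher, 1 mitochondrial gene higher and 7 lower, beside 3350 higher and 3645 lower of all 14965 genes. Leaving out each heart gave 4 to 9 cytosolic genes higher and 1 to 6 mitochondrial genes lower in the edgeR fit. The class contrast taken as the difference of medians over genes was 0.81 (0.56 as means) for Doxo vs. Ctrl and 0.27 (0.17) for Doxo-NMN vs. Ctrl. The cause of these changes was not tested. Calls of single members held in 1860 of 1872 refits for Doxo vs. Ctrl, 1800 of 1872 for Doxo-NMN vs. Doxo, 1823 of 1872 for Doxo-NMN vs. Ctrl, 2700 of 2700 in the chronic study and 1449 of 1512 between studies. Most of these refits leave out a single heart and so differ little from the reported fit. In acute Doxo vs. Ctrl, hearts under 100 CPM of Myl4 lost the calls of Cars, Sars, Wars and Lars2. Hearts at or over 100 CPM lost those of Cars, Iars and Wars. Both sets hold fewer hearts than the full fit, which alone can cost calls.

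Between hearts with the same replicate number, deviations from the group means had a median correlation of 0.061 over 39 acute pairs (-0.62 to 0.58, 18 over 0.1). Over 16 chronic pairs it was 0.022 (-0.25 to 0.41, 4 over 0.1). Hearts with unlike numbers were not compared, so these values cannot show whether the numbers mark a pairing. With the replicate number as a block, 16 cytosolic genes were higher and 1 lower and 1 mitochondrial gene higher and 9 lower in acute Doxo vs. Ctrl, against 1, 10, 8 and 0 in Doxo-NMN vs. Doxo and 8, 0, 0 and 1 in Doxo-NMN vs. Ctrl, and the block gave 0 calls in the chronic study. Counts were high enough for every member, and chronic groups held 5 or 6 hearts.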
